A study of Drosophila melanogaster with 8 samples.

Results

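The ecdysone receptor and the transcription factors that respond to it early were followed in whole Drosophila embryos. The set was named by gene: EcR, usp, Eip74EF, Eip75B, Eip78C, Hr3, Hr4, Hr39, ftz-f1 and Blimp-1, 10 genes in all. A probe set was taken where the platform annotation gave it one of these as its single gene symbol. This found 14 probe sets for 8 of the 10 genes, out of 11981 genes named by single-gene probe sets. Hr39 had 4 probe sets, Hr4 had 3, ftz-f1 had 2 and the other 5 genes had 1 each. Eip74EF and Eip75B were not represented among the probe sets used here and were not analysed.

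Ecdysteroids are the steroid hormones that time moulting and metamorphosis in insects, and a pulse of them also occurs within embryogenesis. The hormone binds a dimer of 2 nuclear receptors, EcR and Ultraspiracle (usp), which then switches on a cascade of further nuclear receptors and other transcription factors. In the cascade as worked out at metamorphosis, the factors that respond to the hormone include Eip75B and Hr4. There Hr3 activates ftz-f1, the repressor Blimp-1 holds ftz-f1 back while the hormone is high, and ftz-f1 marks the fall of the hormone.

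The study switched on DIMMED (gene dimm), a transcription factor of peptide-secreting neuroendocrine cells, throughout the nervous system. The dimm embryos had the genotype w;UAS-dimm2A3/+;elav-GAL4/+ and so carried 1 copy of a myc-tagged dimm transgene, line 2A3, and of the neuronal driver elav-GAL4. The control embryos came from the parental driver line, w;;elav-GAL4, so the driver was present in all groups. Its copy number may differ between the genotypes, since the control line is written without a +. The genotypes also differed in what else the cross brought in. Both genotypes were taken at stage 14, at 22 to 26 h after egg laying by the sample labels (the earliest age in the series text is 24 h). They were also taken at stage 16, at 28 to 32 h. Eggs were collected at 18 °C, and the rearing temperature was 25 °C in all groups. Each of the 4 groups had 2 arrays of whole dechorionated embryos. By the series text each RNA sample went onto 2 arrays. The p-values below therefore cover variation from array to array that may be only technical, and the number of arrays limits their precision. The values are log2 GCRMA signals, which set a probe set against itself across arrays and not against another probe set.

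Between 7574 and 7651 probe sets lay above a signal of 4 on each array, and 8258 that did so on at least 2 arrays were tested. The dimm probe set read 2.53 to 2.86 on the control arrays and 5.51 to 8.26 on the dimm arrays, a difference that passed the test (4.54, limma adjusted p = 0.0386). It lay above 4 on the dimm arrays only, and so was tested through that genotype. The neuronal marker elav read 11.51 to 12.23 on every array. The replicate 1 arrays of both genotypes at stage 16 stood apart from the rest: the log2 signal of the actin control at its 5' end minus that at its 3' end was -8.69 and -8.0 on them, against -4.48 to -2.93 on the other 6 arrays. Both values are given below where leaving out these 2 arrays changed the call of a named stage change averaged over the genotypes, or moved it by over 1.5-fold. Changes within 1 genotype and dimm effects are not all given in this way. The median of the stage changes of all tested probe sets was -0.41, and small changes are read against it. The lowest value on the arrays was 2.182 at stage 14 and 2.186 at stage 16, so the stages may have been normalised apart.

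**Figure D1:**
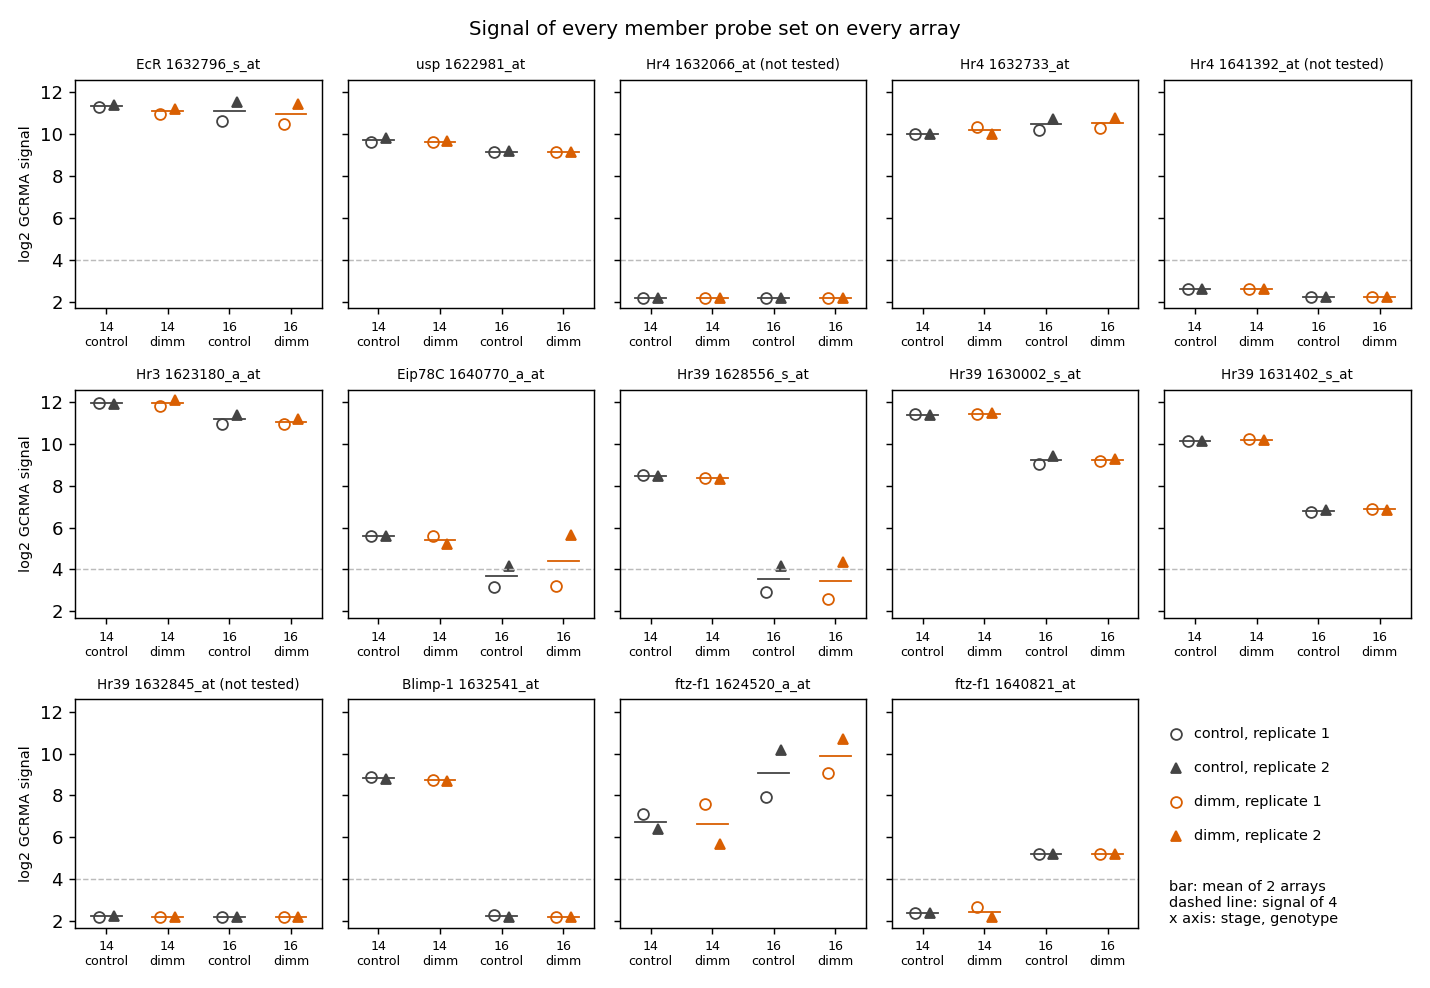
Log2 GCRMA signal of each of the 14 probe sets (y axis) on each of the 8 arrays, by stage and genotype (x axis); circles and triangles are replicates 1 and 2, bars are means of 2 arrays and the dashed line marks a signal of 4. Blimp-1 drops from near 8.8 at stage 14 to the lowest values at stage 16, the Hr39 probe sets above 4 drop as well, and both ftz-f1 probe sets are higher at stage 16.

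The change from stage 14 to stage 16 was large in 3 genes, Blimp-1, Hr39 and ftz-f1, and moderate or below the threshold in the receptor pair and in Hr3, Hr4 and Eip78C. In whole embryos, fewer cells that express a gene and less of its RNA per cell cannot be told apart. Averaged over the genotypes, 6 of the 11 tested probe sets fell and 2 rose at an adjusted p of at most 0.05. Stage changes were common on these arrays: 49.3% of all tested probe sets fell and 24.7% rose, 73.9% in either direction, and a share of 8 in 11 is close to that background. When the arrays were centred on the median of the tested probe sets, the background split moved from 4069 lower and 2036 higher to 3112 lower and 2650 higher. A change below -2 was measured for 4 of the 11 probe sets, 3 of them of Hr39, where 8.88% of all tested had one. A change above 2 was measured for 2, both of ftz-f1, where 10.5% had one. These are 3 of 8 genes, and probe sets of 1 gene are not separate members. With signals below 4 raised to 4, 1 of the ftz-f1 probe sets remained above 2. Blimp-1 and ftz-f1 1640821_at passed the filter on signal through 1 stage only. The arrays of the stages did not overlap in the same 8 probe sets, 6 lower and 2 higher, as in 49.4% and 24.3% of all tested. The median change of the 11 was -0.83.

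EcR, the hormone-binding subunit, had 1 probe set (1632796_s_at). At stage 14 it read 11.30 and 11.37 in control embryos and 10.97 and 11.18 in dimm embryos. At stage 16 it read 10.63 and 11.54 in control embryos and 10.47 and 11.44 in dimm embryos. The replicate 1 arrays were the lowest of all 8 at stage 16 and the replicate 2 arrays the highest, so the stages overlapped fully. The averaged stage change was -0.18 ± 0.29 (SE, n = 4 arrays per stage), limma adjusted p = 0.585, and it turned to 0.07 when arrays were centred on the median of tested probe sets. Without the replicate 1 arrays of stage 16, 1 array remained in each stage 16 group and the spread came from stage 14: the change was then 0.28 ± 0.08, limma adjusted p = 0.047, while 85.3% of all tested probe sets passed under that setting.

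The partner subunit usp (1622981_at), the fly relative of the vertebrate retinoid X receptor, read 9.63 and 9.79 in control and 9.61 and 9.66 in dimm embryos at stage 14. At stage 16 it read 9.13 and 9.17 in control and 9.14 on both arrays of dimm embryos. All 4 arrays of stage 16 lay below all 4 of stage 14, and the replicate 1 arrays did not stand apart. usp fell by 0.53 ± 0.06 (limma adjusted p = 0.00067), and the change relative to the median of all tested probe sets was -0.12. In dimm embryos alone its call was lost when all arrays were quantile-normalised together (adjusted p = 0.0841) and when they were centred on the tested probe sets (adjusted p = 0.142).

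Hr3, a nuclear receptor of the ROR class that activates ftz-f1 at metamorphosis, read 11.95 and 11.92 in control and 11.82 and 12.09 in dimm embryos at stage 14 (1623180_a_at). At stage 16 it read 10.96 and 11.36 in control and 10.95 and 11.17 in dimm embryos. The stages did not overlap. Hr3 fell by 0.83 ± 0.12 (limma adjusted p = 0.0018), or -0.43 relative to the median of all tested. In control embryos alone the change of -0.77 had a limma adjusted p of 0.0128, and this call was lost when either stage 14 control array was left out (adjusted p = 0.0677 without replicate 1 and 0.0601 without replicate 2).

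Hr4, a nuclear receptor of the cascade, had 1 probe set well above the lowest values (1632733_at). It read 9.98 and 9.99 in control and 10.33 and 10.01 in dimm embryos at stage 14, and 10.18 and 10.71 in control and 10.28 and 10.77 in dimm embryos at stage 16. The replicate 2 arrays of stage 16 were the highest, while the replicate 1 arrays lay within the range of stage 14. The averaged stage change of 0.41 ± 0.18 did not pass (limma adjusted p = 0.083). It did pass with the arrays of a group averaged into 1 value (limma adjusted p = 0.0138), where 82% of all tested probe sets passed. It also passed with joint quantile normalisation (0.58, adjusted p = 0.0112) and with centring on the tested probe sets (0.67, adjusted p = 0.0146), where 70.8% and 69.9% passed. Without both replicate 1 arrays of stage 16 the change was 0.66. Without the control array of these alone it was 0.54, and without the dimm array alone 0.53. The other Hr4 probe sets, 1632066_at and 1641392_at, read at most 2.58 on every array and were not tested.

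Eip78C, an ecdysone-induced nuclear receptor, had a dim probe set (1640770_a_at). It read 5.58 and 5.59 in control and 5.58 and 5.19 in dimm embryos at stage 14, then 3.19 and 4.16 in control and 3.19 and 5.66 in dimm embryos at stage 16. The replicate 2 array of stage 16 dimm embryos was the highest of all 8 and the other 3 arrays of that stage were the lowest. The averaged change of -1.43 ± 0.58 did not pass (limma adjusted p = 0.0672). It did with the arrays of a group averaged into 1 value (adjusted p = 0.0149) and with array weights (adjusted p = 0.0336). In these settings 82% and 73.8% of all tested probe sets passed. Leaving out that replicate 2 array gave -2.05, and leaving out both replicate 1 arrays of stage 16 gave -0.57. The size of the change thus depended on which stage 16 arrays were used.

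Hr39, a nuclear receptor related to ftz-f1, showed a fall from stage 14 to stage 16 in each of its 3 tested probe sets. The probe set 1631402_s_at read 10.13 and 10.12 in control and 10.23 and 10.18 in dimm embryos at stage 14, against 6.72 and 6.83 in control and 6.88 and 6.85 in dimm embryos at stage 16. The probe set 1630002_s_at read 11.40 and 11.36 in control and 11.42 and 11.47 in dimm embryos at stage 14, against 9.04 and 9.40 in control and 9.18 and 9.28 in dimm embryos at stage 16. The probe set 1628556_s_at read 8.50 and 8.47 in control and 8.37 and 8.33 in dimm embryos at stage 14, against 2.92 and 4.19 in control and 2.57 and 4.37 in dimm embryos at stage 16. In none of the 3 did the stages overlap. The changes were -3.34 ± 0.06 (limma adjusted p = 6.29e-07), -2.19 ± 0.10 (adjusted p = 1.11e-05) and -4.91 ± 0.48 (adjusted p = 0.00029) in that order. The 3 probe sets moved in the same direction by different amounts. The last change reached signals near the lowest values: it was -4.28 with all signals below 4 raised to 4, and -4.14 (adjusted p = 2.94e-05) without the replicate 1 arrays of stage 16. The remaining probe set, 1632845_at, read 2.19 to 2.24 and was not tested.

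Blimp-1, a zinc finger repressor, had the largest stage change of the set. Its probe set (1632541_at) read 8.87 and 8.79 in control and 8.76 and 8.69 in dimm embryos at stage 14. At stage 16 it read 2.27 and 2.21 in control and 2.21 on both arrays of dimm embryos, next to the lowest value of that stage. Each stage 14 array was thus far above each stage 16 array. Blimp-1 fell by 6.55 ± 0.06 (limma adjusted p = 4.00e-07). It lay above 4 on the 4 arrays of stage 14 only, and so was tested through the stage where it was high. Its small error rests in part on near equal values at the floor of stage 16. Since the stage 16 signal was at background, the size is uncertain, and with signals below 4 raised to 4 the change was -4.78.

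The nuclear receptor ftz-f1, known for its role in prepupae once the hormone has fallen, rose from stage 14 to stage 16. The probe set 1640821_at read 2.40 on both control arrays and 2.68 and 2.22 in dimm embryos at stage 14, and 5.19 and 5.22 in control and 5.19 on both arrays of dimm embryos at stage 16. The probe set 1624520_a_at read 7.11 and 6.38 in control and 7.59 and 5.70 in dimm embryos at stage 14, and 7.94 and 10.17 in control and 9.07 and 10.68 in dimm embryos at stage 16. The stages did not overlap in either, but the second varied widely within a group. The rise was 2.77 ± 0.11 (limma adjusted p = 8.32e-06) in the first, or 1.20 with signals below 4 raised to 4. This first probe set lay above 4 on the 4 arrays of stage 16 only, and so was tested through that stage. In the second the rise was 2.77 ± 0.73 (adjusted p = 0.0171). The second call was lost without the replicate 2 array of stage 14 control (adjusted p = 0.0615), of stage 14 dimm (0.0563) or of stage 16 dimm embryos (0.0512), and without both replicate 1 arrays of stage 16 the rise was 3.73 (adjusted p = 0.0187). Which ftz-f1 transcripts each probe set reads was not examined here.

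**Figure D2:**
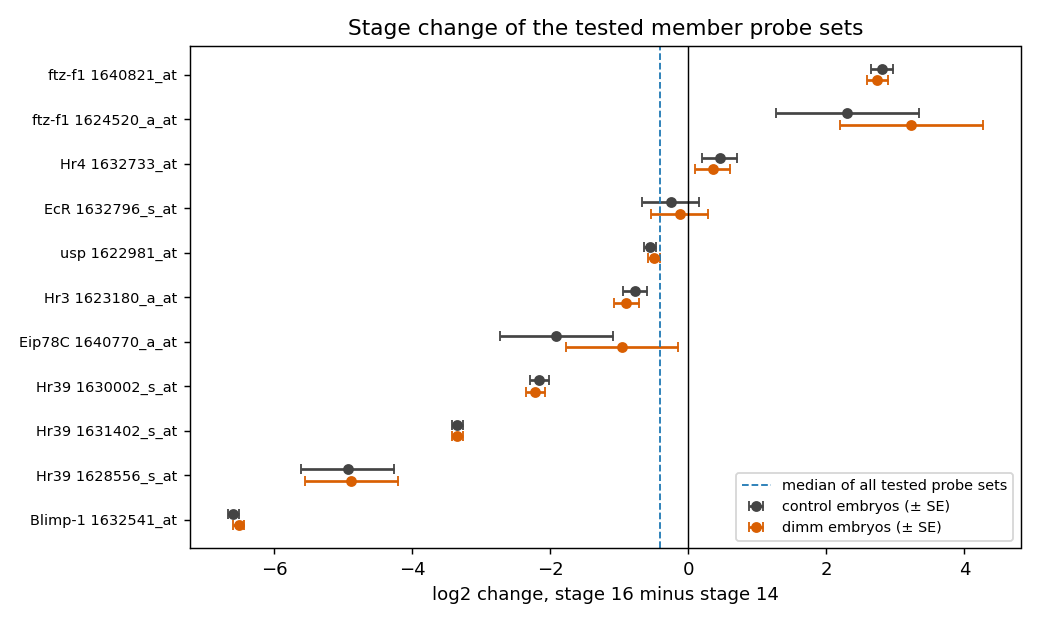
Log2 change from stage 14 to stage 16 (x axis) of the 11 tested probe sets (y axis), in control and in dimm embryos, with the standard error of the fit; the dashed line is the median of all tested probe sets, averaged over the genotypes (-0.41). The control and dimm points are -6.59 and -6.51 for Blimp-1 and 2.81 and 2.74 for ftz-f1 1640821_at, and lie farther apart for Eip78C (-1.91 and -0.96) and ftz-f1 1624520_a_at (2.31 and 3.23).

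Each genotype alone gave a similar picture. In control embryos 7 of the 11 probe sets passed, 1 higher and 6 lower, where 21.8% of all tested rose, 39% fell and 60.8% passed in either direction. In dimm embryos 8 passed, 2 higher and 6 lower, where 20.7% rose, 42.8% fell and 63.5% passed. The probe set that passed in dimm embryos and not in control embryos was ftz-f1 1624520_a_at, with changes of 3.23 ± 1.04 (limma adjusted p = 0.0385) and 2.31 ± 1.04 (adjusted p = 0.104). The difference between these changes did not pass its own test (0.92, 95% interval -2.75 to 4.60). In dimm embryos this call was lost on leaving out either replicate of stage 14 control embryos or the replicate 2 array of either dimm group (adjusted p = 0.0696 to 0.183).

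**Figure D3:**
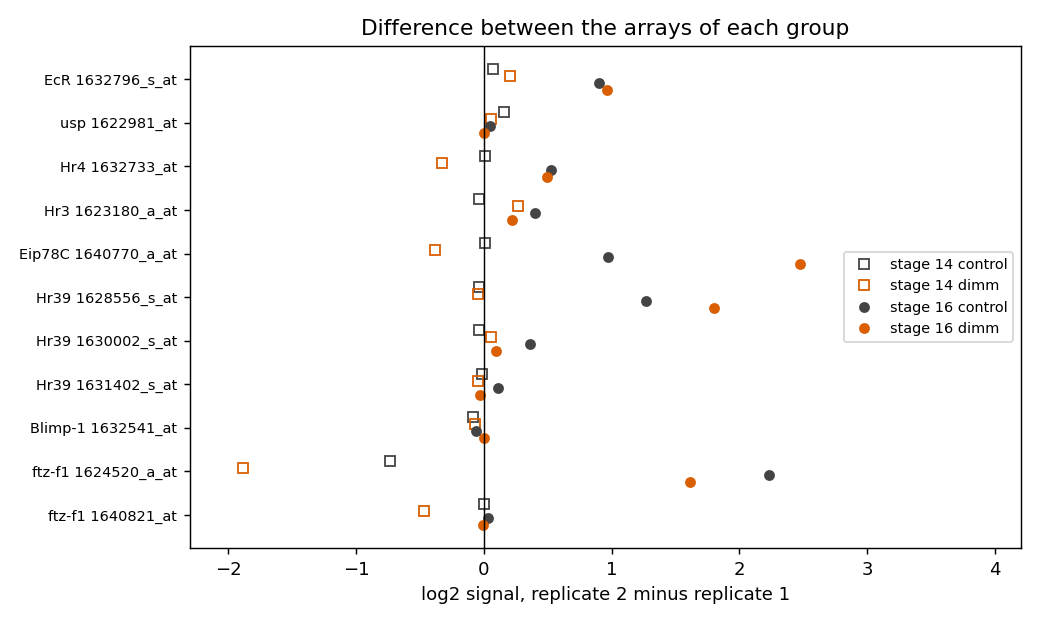
Difference in log2 signal between the replicate 2 and replicate 1 arrays of each group (x axis) for the 11 tested probe sets (y axis); open squares are stage 14 and filled circles stage 16. At stage 16 the control and dimm points of EcR lie at 0.90 and 0.97, while those of usp lie at 0.05 and 0.00.

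The arrays of stage 16 differed from one another unequally across these genes. Replicate 2 was above replicate 1 in both genotypes by 2.23 and 1.61 for ftz-f1 1624520_a_at, by 0.97 and 2.47 for Eip78C, by 1.27 and 1.80 for Hr39 1628556_s_at and by 0.90 and 0.97 for EcR, in control and dimm embryos respectively. The median size of this difference over all tested probe sets was 0.33 and 0.29. By contrast usp, ftz-f1 1640821_at and Hr39 1631402_s_at differed by at most 0.11 in size, while Blimp-1 was too near the lowest value at stage 16 to show a difference. The actin 5' signal was low on the same replicate 1 arrays, and its part in these differences was not tested.

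No effect of dimm was detected on any of these genes. Of the 11 tested probe sets, 0 passed for the effect averaged over the stages, at stage 14, at stage 16 or for the difference between the stages by limma at an adjusted p of at most 0.05, and 0 had an unadjusted p under 0.05 in any of the 4 comparisons. Across all tested probe sets 1.5% passed for the average effect, 0.339% at stage 14, 0.363% at stage 16 and 0.0121% for the difference, and the shares with an unadjusted p under 0.05 were 12%, 8%, 7.97% and 3.02% in that order.

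The intervals of these differences, which take the arrays as independent, varied in width. For usp the averaged dimm effect was -0.04 (95% interval -0.20 to 0.12). For Hr39 1631402_s_at it was 0.09 (-0.06 to 0.23) and for Hr39 1630002_s_at 0.04 (-0.20 to 0.28). These were narrow. For Hr3 the averaged effect was -0.04 (-0.36 to 0.27) and for Hr4 0.13 (-0.31 to 0.58). Blimp-1 had -0.07 (-0.21 to 0.07) and ftz-f1 1640821_at 0.02 (-0.27 to 0.30), but each average includes a stage near the lowest values, where a fall could not show. Where they were higher, the effect was -0.11 (-0.31 to 0.09) for Blimp-1 at stage 14. For ftz-f1 1640821_at at stage 16 it was -0.02 (-0.42 to 0.38). The intervals of the averaged effect were wide for EcR at -0.19 (-0.93 to 0.54), for Hr39 1628556_s_at at -0.11 (-1.30 to 1.09), for Eip78C at 0.28 (-1.17 to 1.72) and for ftz-f1 1624520_a_at at 0.36 (-1.48 to 2.20), so that a doubling of the signal, 1 log2 unit, lay inside the last 3 of these. For each of these wide intervals the width depended on the pairing of arrays, which no label states. With the replicate block of each stage the interval for EcR was -0.33 to -0.06 (limma adjusted p = 0.0948). Under that block it was -0.39 to 0.18 for Hr39 1628556_s_at, -0.49 to 1.04 for Eip78C and -0.29 to 1.01 for ftz-f1 1624520_a_at.

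**Figure D4:**
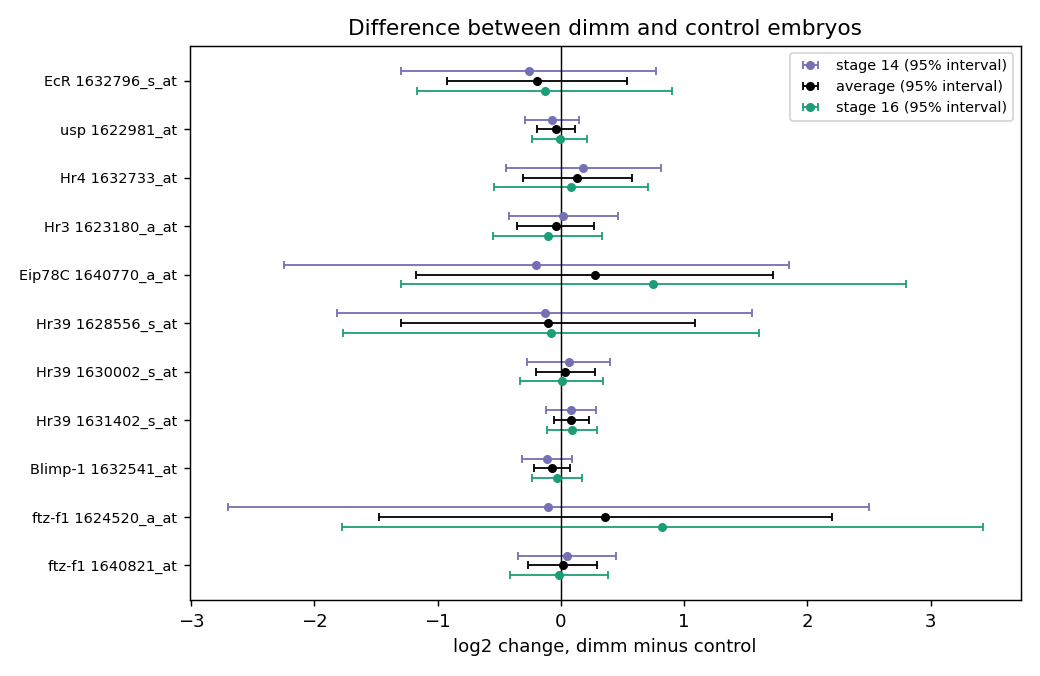
Log2 difference between dimm and control embryos (x axis) of the 11 tested probe sets (y axis) at stage 14, averaged and at stage 16, with 95% intervals. All intervals include 0, and they are widest for ftz-f1 1624520_a_at and Eip78C.

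The arrays of the genotypes did not overlap at either stage in 1 of the 11 probe sets, Hr39 1631402_s_at, where dimm was higher. This held for 6.78% of all tested probe sets. Its stage 16 values, 6.72 and 6.83 in control against 6.88 and 6.85 in dimm embryos, differed by 0.09 (95% interval -0.11 to 0.29). At stage 14 alone, 3 probe sets lay higher in dimm embryos without overlap and 4 lower, against 33% and 19.3% of all tested. Among tissue markers, the glial gene repo differed between the genotypes, lower in dimm embryos by 0.78 (limma adjusted p = 0.0256). The glial genes moody, at -0.33 (adjusted p = 0.0845), and alrm, at -0.12 (adjusted p = 0.942), did not pass. Thus 1 of 13 tested markers changed, where 1.5% of all tested probe sets did.

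Other genes of the hormone pathway were grouped in 4 lists, and are given averaged over the genotypes. Among ecdysone-inducible and late genes, 14 of 28 were tested, 5 rose and 7 fell. The shares over all tested probe sets were 24.7% and 49.3%, so the count of falls was at the background. Of the 4 tested genes of the Imp series, first found through the hormone in imaginal discs, ImpE1 rose by 2.19 ± 0.08 (limma adjusted p = 6.34e-06), ImpL1 by 2.01 ± 0.05 (adjusted p = 2.08e-06) and ImpE2 by 1.79 ± 0.09 (adjusted p = 1.92e-05), while ImpL2 fell by 0.61 ± 0.07 (adjusted p = 0.00045). E23, an ecdysone-inducible ABC transporter, fell by 2.07 ± 0.13 (adjusted p = 4.26e-05). The zinc finger gene br rose by 1.47 ± 0.17. The median of the list, -0.44, was close to that of all tested probe sets.

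Among 13 other nuclear receptors, 8 were tested, 0 rose and 5 fell, against 24.7% and 49.3% of all tested probe sets. Without the replicate 1 arrays of stage 16, the median of the list was -0.85, beside -0.36 for all tested. The gap gene kni, also used in the trachea, fell by 1.93 ± 0.09 (limma adjusted p = 1.17e-05), the related gene knrl fell by 1.26 ± 0.08 and ERR fell by 0.72 ± 0.23. tll, a regulator of the embryonic termini and brain, changed by -2.44 ± 0.09 (adjusted p = 5.46e-06), but it read 2.77 at stage 16, close to the lowest values, and changed by -1.21 with signals below 4 raised to 4. With all arrays the median of the list was -0.68, beside -0.41 for all tested.

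Of 16 receptor co-regulators and chaperones, 11 were tested, 0 rose and 8 fell, again against 24.7% and 49.3% of all tested probe sets. The median was -0.86, beside -0.41 for all tested. Without the replicate 1 arrays of stage 16 it was -0.61, beside -0.36 for all tested. Utx, a histone demethylase, fell by 2.40 ± 0.57 (limma adjusted p = 0.0114), or by 1.5 without those arrays, and the remodelling ATPase Iswi fell by 1.52 ± 0.10 (adjusted p = 5.69e-05). The receptor cofactor rig fell by 1.15 ± 0.16 and the methyltransferase trr fell by 0.99 ± 0.07. The coactivator tai had an averaged change of -0.82 ± 0.71, short of the threshold (adjusted p = 0.33). Without those arrays its change turned to 0.33 (limma adjusted p = 0.0178), where 85.3% of all tested passed.

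For ecdysteroid synthesis, transport and turnover, 5 of 14 genes were tested, 1 rose and 1 fell. The shares over all tested probe sets were 24.7% and 49.3%. The median of the list was 0.14, beside -0.41 for all tested. Cyp18a1, which inactivates ecdysteroids, rose by 1.41 ± 0.11 (limma adjusted p = 0.000109), and E23 fell as above, both genes being in the inducible list too. The hormone importer Oatp74D, at 0.74 ± 0.33, did not pass, and its change was 1.28 without the replicate 1 arrays of stage 16. The synthesis gene dib, a marker of the prothoracic gland, was at the lowest value on every array. For a dimm effect, 0 of the 36 tested genes of the 4 lists passed by limma in any of the 4 comparisons. An unadjusted p under 0.05 was found for 3 of them (Cyp18a1, kni and CSN2) for the average, where 12% of all tested had one, for CSN2 alone at each stage and for 0 in the difference. CSN2, a subunit of the COP9 signalosome, was higher in dimm embryos by 0.36 ± 0.05, just short of the threshold (limma adjusted p = 0.0501), and passed under 4 of 17 alternatives (adjusted p = 0.0314 to 0.296).

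**Figure D5:**
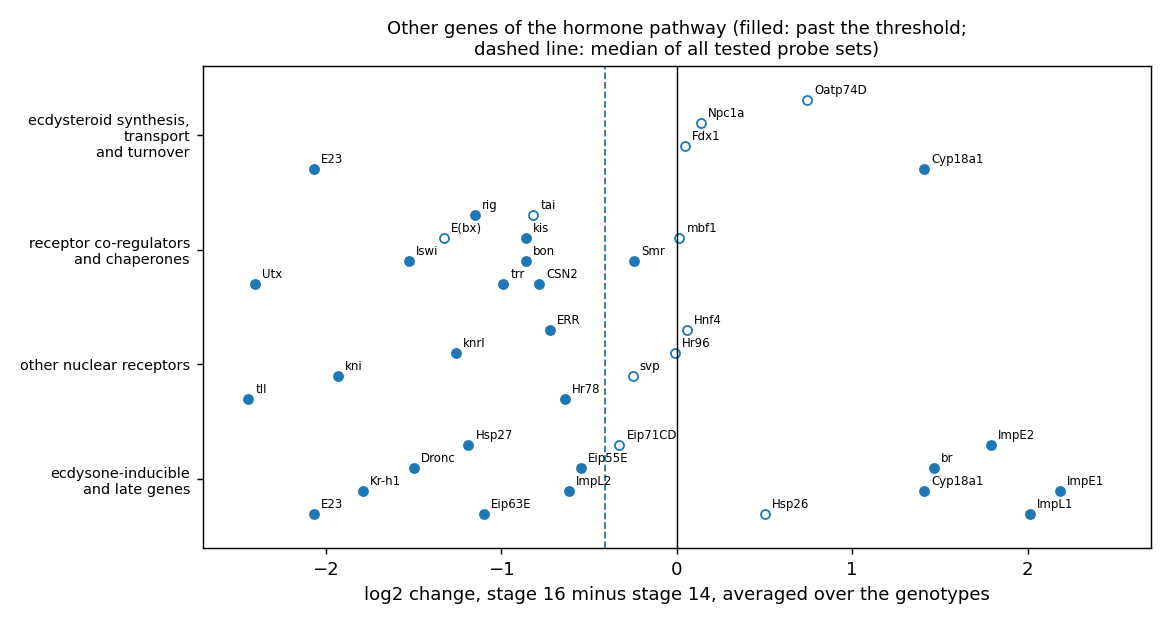
Log2 change from stage 14 to stage 16, averaged over the genotypes (x axis), of the tested genes in 4 lists of the hormone pathway (y axis); filled points passed the test and the dashed line is the median of all tested probe sets. ImpE1, ImpL1 and ImpE2 lie at the right near 2, and tll, Utx and E23 at the left below -2.

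Markers of the embryos' tissues were followed over the same interval. Of 13 tested marker genes of neurons, glia, epidermis, trachea, fat body, haemocytes and midgut, 5 rose and 5 fell from stage 14 to stage 16. The shares over all tested probe sets were 24.7% and 49.3%. Markers of 1 tissue did not always move together. In neurons elav fell by 0.63 and the synaptic gene nSyb, near the lowest values at stage 14, changed by 4.19, or 2.72 with signals below 4 raised to 4. In the epidermis grh fell by 0.70 and the chitin synthase gene kkv rose by 1.66. In the trachea serp rose by 0.47. The change of btl, at most 4.08 on any array and counted among the falls, was -1.84, or -0.04 with signals below 4 raised to 4. The unlogged signals of a tissue's listed markers were also summed. The brightest probe set mostly decides such a sum, as elav does for neurons. The log2 of the sum was higher at stage 16 without overlap for epidermis (12.89 to 12.95, then 13.17 to 13.56) and trachea (11.82 to 11.97, then 12.07 to 12.68). So was the 1 midgut marker, by little (10.33 to 10.51, then 10.52 to 10.63). The log2 of the sum was lower without overlap for neurons (12.21 to 12.23, then 11.57 to 11.72). For glia the stages overlapped when the genotypes were pooled, but not within a genotype. The glial sum was lower at stage 16 in control (11.55 to 11.56, then 11.39 to 11.52) and in dimm embryos (11.09 to 11.11, then 10.87 to 10.88). For fat body (11.96 to 12.14, then 10.27 to 11.71) and haemocytes (12.21 to 12.35, then 11.31 to 12.06) the log2 of the sum was lower too. The same gene, srp, carried both of these falls, since Fbp2 and Hml were near the lowest value on every array. srp changed by -0.997 (limma adjusted p = 0.0581), or -0.38 without the replicate 1 arrays of stage 16. Pxn, the other haemocyte marker, rose by 0.61 (adjusted p = 0.0017). The part of these markers in the changes of Blimp-1, Hr39 and ftz-f1 was not tested.

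For 3 members the tested genes with the most similar profile were sought, by the root mean square difference, over the 8 arrays, of signals centred on each probe set's own mean. Nearest to Blimp-1 were MFS1 (0.24), Muc30E (0.41) and Ocho (0.46). Nearest to ftz-f1 1624520_a_at were snu (0.54), CG44085 (0.55) and CG7173 (0.56), and nearest to Hr39 1630002_s_at were CG7692 (0.06), LPCAT (0.08) and CG7065 (0.08). MFS1 read 8.26 and 8.28 at stage 14 in control and dimm embryos and 2.19 at stage 16 in both, and CG7173 read 8.64 and 8.60 and then 11.48 and 11.50. These are descriptions over 8 arrays that share their stages and groups.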

How the data were processed

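Total RNA of dechorionated embryos was hybridised to Affymetrix Drosophila Genome 2.0 arrays. The deposited table holds log2 values made by the authors. GCRMA 2.22.0, R 2.12.1 and limma are the tools listed, per the submitters' processing notes. GCRMA corrects background by probe sequence, normalises between arrays and summarises each probe set. No source used here says whether the stages went through it jointly. Leaving out 183 controls from the 18952 probe sets left 18769. The platform annotation gave 1 gene symbol to 13646 of them, more than 1 to 402, and none to 4721. RefSeq names of Release 6 plus ISO1 MT were used.

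Probe sets above 4 on at least 2 of 8 arrays (8258) were fitted with limma 3.58.1 in R 4.3.3 on the 4 group means, with 4 residual and 1.45 prior degrees of freedom and Benjamini-Hochberg adjustment over all of them at 0.05. The fit was tested on simulated data. Intervals are 95%, and errors beside changes are standard errors. Genes of the lists are represented by their probe set with the highest mean.

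The members and lists were chosen with earlier results of these data known. All members were to be named, with up to 4 genes per list by size of the stage change, the targeted gene and the tissue markers; br, tai, CSN2, ImpL2 and Oatp74D were added after their values were seen. Replicate numbers of the labels are not stated to mark a shared sample, and correlations of replicate differences were 0.906 between the genotypes at stage 16, 0.155 at stage 14 and -0.0241 to 0.134 across stages. Alternatives changed the filter, the floor, the scaling, array weights, the arrays left out, the replicate block and the unit of replication. One more, centring on the median of the tested probe sets, was added after seeing the data.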

Additional observations from a re-analysis of the deposited data

How the results depend on the processing

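The results for the 11 tested probe sets were recomputed under each alternative, 1309 results in all. Of these, 1194 had the same direction and the same side of the threshold, 15 lost and 19 gained a call, and 81 turned sign, 69 of them dimm effects. None of the 737 dimm results passed the threshold under any alternative, where the lowest adjusted p was 0.0739. The count of the 11 probe sets with a stage change moved with the setting, and so did the share of all tested probe sets. The range of that count is not given, since in some fits a group had no replicate. For the change averaged over the genotypes the share was 73.9% as reported and 84.2% without the filter. It was 70.8% with joint quantile normalisation and 69.9% with centring on the tested probe sets. A higher count is therefore not read as a result about these 11. Losses fell on ftz-f1 1624520_a_at, Hr3 and usp, and gains on Hr4, Eip78C and ftz-f1 1624520_a_at. Array weights ended the averaged call of ftz-f1 1624520_a_at (adjusted p = 0.0575), and without the filter its call in dimm embryos was lost (adjusted p = 0.0595). Without the filter an untested Hr4 probe set passed on a stage change of 0.0044, a difference in the lowest value of the arrays.

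Equal replicate numbers are not known to pair the arrays. With a replicate block over all groups, the call of ftz-f1 1624520_a_at in dimm embryos was lost (adjusted p = 0.0554). With the replicate block of each stage the averaged dimm effect on EcR was -0.19 (95% interval -0.33 to -0.06, unadjusted p = 0.0155, adjusted p = 0.0948 in limma), the 4 same-numbered differences being -0.33, -0.19, -0.16 and -0.10. It was the 1 of 11 probe sets with an unadjusted p under 0.05 there. Under that block no member passed for dimm, while the number of all tested probe sets called for the averaged dimm effect went from 124 to 639, at stage 14 from 28 to 157 and at stage 16 from 30 to 219. Those counts over all tested probe sets moved with other settings too, from 3 (arrays of a group averaged) to 769 (both replicate 1 arrays of stage 16 left out) for the average, from 2 to 734 (array weights) at stage 14, from 0 (array weights) to 330 at stage 16, and from 0 to 7 for the difference between the stages. The averaged stage count went from 6105 of 8258 (73.9%) to 15799 of 18769 (84.2%) without the filter, where more probe sets were tested, and to between 5294 and 6436 when 1 array was left out.

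The sign turned only in changes that did not pass as reported, and the 1 turned value that passed was the averaged stage change of EcR without both replicate 1 arrays of stage 16 (0.28). In that setting the stage change of EcR was 0.20 in control and 0.36 in dimm embryos and that of Eip78C 0.28 in dimm embryos. The dimm effect on Hr39 was there 0.027 averaged and 0.19 at stage 16 for 1628556_s_at, -0.029 and -0.12 for 1630002_s_at, and the difference between the stages -0.063 for 1631402_s_at. With joint quantile normalisation the stage change of EcR in dimm embryos was 0.075, the dimm effect on Hr3 at stage 14 -0.031, and at stage 16 that on usp 0.016 and on ftz-f1 1640821_at 0.025. The difference between the stages was there 0.012 for Hr39 1630002_s_at and 0.0078 for ftz-f1 1640821_at. With arrays centred on the tested probe sets, an alternative chosen after seeing the data, EcR changed with stage by 0.075 averaged and 0.19 in dimm embryos. The dimm effect was there -0.043 on Hr3 and -0.014 on ftz-f1 1640821_at at stage 14, 0.021 on usp and 0.013 on ftz-f1 1640821_at at stage 16, and -0.00047 on the latter averaged. The difference between the stages was 0.036 for Hr39 1630002_s_at and 0.027 for ftz-f1 1640821_at. With signals below 4 raised to 4, the averaged dimm effect on ftz-f1 1640821_at was -0.0085 and that on Hr39 1628556_s_at at stage 16 0.093.

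Leaving out 1 array at a time moved the stage change of EcR from -0.43 to 0.057 averaged, from -0.70 to 0.20 in control and from -0.60 to 0.36 in dimm embryos, and that of Eip78C in dimm embryos from -2.20 to 0.28. The averaged dimm effect ranged from -0.44 to 0.047 for EcR, from -0.14 to 0.058 for Hr3, from -0.34 to 0.89 for Eip78C, from -0.56 to 0.34 for Hr39 1628556_s_at, from -0.053 to 0.13 for Hr39 1630002_s_at, from -0.20 to 0.92 for ftz-f1 1624520_a_at and from -0.10 to 0.13 for ftz-f1 1640821_at. At stage 14 it ranged from -0.15 to 0.0055 for usp, from -0.11 to 0.15 for Hr3, from -1.05 to 0.84 for ftz-f1 1624520_a_at and from -0.19 to 0.28 for ftz-f1 1640821_at. At stage 16 it ranged from -0.61 to 0.35 for EcR, from -0.033 to 0.015 for usp, from -0.18 to 0.34 for Hr4, from -0.31 to 0.096 for Hr3, from -0.49 to 1.99 for Eip78C, from -0.98 to 0.82 for Hr39 1628556_s_at, from -0.17 to 0.19 for Hr39 1630002_s_at and from -0.29 to 1.94 for ftz-f1 1624520_a_at. The difference between the stages ranged from -0.35 to 0.61 for EcR, from -0.015 to 0.14 for usp, from -0.36 to 0.16 for Hr4, from -0.33 to 0.077 for Hr3, from -0.29 to 2.19 for Eip78C, from -0.85 to 0.95 for Hr39 1628556_s_at, from -0.24 to 0.12 for Hr39 1630002_s_at, from -0.049 to 0.060 for Hr39 1631402_s_at, from -0.19 to 2.04 for ftz-f1 1624520_a_at and from -0.30 to 0.17 for ftz-f1 1640821_at. The cause of these shifts was not tested. Probe sets near the lowest value, as Blimp-1 at stage 16, carry an uncertain size of change.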

Other observations

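Some probe sets of the set hardly varied between arrays. The 4 arrays of stage 16 spanned 0.03 for ftz-f1 1640821_at, at a signal of 5.19 to 5.22, where the median span of the 609 tested probe sets with a mean between 5 and 6 was 0.61 and 6.57% of them spanned under 0.05. For usp the 4 arrays spanned 0.05, where the median span of the 1234 tested probe sets with a mean between 9 and 10 was 0.55 and 0.567% spanned under 0.05. The small errors of these stage changes rest on such near equal values.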
